A study of Mus musculus with 4 samples.

Results

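The Hist1h genes encode the linker histone H1 and the core histones H2A, H2B, H3 and H4, and in the mouse they lie in clusters on chromosome 13. All 54 symbols of the deposited feature tables that begin with Hist1h were taken as members, out of 31053 genes. Their RNA was counted in single nuclei of the mouse eye by 10x droplet sequencing, where nuclei are told apart by barcodes and captured RNA molecules are counted by unique molecular identifiers (UMIs). The 4 libraries are labelled as retina of a left eye: 2 from donors aged 2.5 months, described as wild type, and 2 from donors aged 5 months, for which the labels give no genotype. The series title speaks of human retina and its text of an eye bank, while every sample is labelled mouse. The genes were chosen by their symbol, and the topic was chosen on the higher values of Hist1h4d and Hist1h1e at 5 months in these data, so every age difference below is a description and carries no independent support.

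In chromatin, DNA is wound around core histones, and H1 binds the linker DNA between these units. Most clustered histone genes have no intron, are transcribed in S phase under the coactivator NPAT, and give RNAs that end just after a short stem-loop instead of in a poly(A) tail. The stem-loop is bound by the protein SLBP, which acts in processing, export and translation of these RNAs. Cells that have left the cell cycle can also make longer, polyadenylated forms from some of these genes, and droplet methods that prime on poly(A) capture mainly such RNAs. Retinal neurons no longer divide, and mouse rods are known for an inverted nucleus with condensed chromatin at its centre.

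The libraries held 19608067 and 28723257 UMIs at 2.5 months and 28042269 and 36320257 at 5 months. Of 32326 barcodes, 30839 nuclei were kept and 28168 fell into 12 named classes, of which 10 had enough nuclei for tests: rod-like, cone-like, bipolar-like, horizontal-like, amacrine-like, ganglion-like, Müller-like, RPE-like (retinal pigment epithelium), melanocyte-like and fibroblast-like, written below without the suffix. Each class was named from its marker genes; melanocytes, fibroblasts and muscle show that the samples held more than retina. Rods made up 43.8% and 39.5% of kept nuclei at 2.5 months and 13.1% and 20.3% at 5 months, and of the 2 rod clusters the larger one held most rods in 3 libraries and the smaller one in the second 5-month library. The 2.5-month files came from Cell Ranger 7.1.0 and the 5-month files from 4.0.0, so the effects of age and of software version cannot be told apart. Whether reads in introns were counted is not given in the sources used here.

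The stem-loop is shown for 7 members that carried much of the counted RNA, since it marks the place where a processed histone RNA would end. Capitals mark the 16 bases of the stem-loop, and 5 bases on either side are in lower case.

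Hist1h4d: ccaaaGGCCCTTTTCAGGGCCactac
Hist1h1e: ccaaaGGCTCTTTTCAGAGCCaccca
Hist1h2be: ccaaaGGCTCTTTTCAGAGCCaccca
Hist1h1c: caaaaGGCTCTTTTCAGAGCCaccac
Hist1h4i: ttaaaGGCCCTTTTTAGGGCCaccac
Hist1h4c: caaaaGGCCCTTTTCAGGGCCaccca
Hist1h4h: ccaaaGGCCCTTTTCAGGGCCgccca

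The H4 genes among them share a form with a GGCCC stem, and Hist1h4i differs from the other H4 genes in its loop. Both H1 genes and Hist1h2be share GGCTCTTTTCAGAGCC. The histone stem-loop motif was found on the sense strand in the transcript models (GENCODE release M21 on GRCm38) of 29 of the 54 members: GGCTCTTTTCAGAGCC in 20 genes, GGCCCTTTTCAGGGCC in 6, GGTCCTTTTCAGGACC in 2 and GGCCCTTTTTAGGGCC in 1. Of 21786 other coding genes, 2 held it (0.00918%). Where a model stops before the motif, the search could not find it.

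Hist1h4d lies at chr13:23581598-23582735 on the plus strand as a single exon, and its model runs 770 bases past the stem-loop. Hist1h1e lies at chr13:23620629-23622558 on the minus strand, also as a single exon, with 1153 bases past the stem-loop. The model of Hist1h2be, an H2B gene at chr13:23583670-23621124 on the minus strand, has several exons and shares 496 exon bases with Hist1h1e on the same strand. Reads from that stretch could belong to either gene, and how they were assigned is not given in the sources used here. The other printed genes are Hist1h1c at chr13:23738808-23740367 (plus, 840 bases past the stem-loop), Hist1h4i at chr13:22040636-22041362 (minus, 330 bases), Hist1h4c at chr13:23697635-23698454 (minus, 454 bases) and Hist1h4h at chr13:23531050-23531519 (plus, 46 bases). Members share sequence with other genes to different degrees. Of the 60-base windows of Hist1h4d 6.95% also occur in a transcript model of another gene, member or not. The share was 30.6% for Hist1h1e, 44.5% for Hist1h4h and 92.9% for Hist1h2ap, so counts of the more alike genes are uncertain. For Hist1h1e it can include the stretch that overlaps Hist1h2be.

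The bases before the start site are shown for the 2 genes that chose the topic, because both were higher at 5 months. These are 120 bases of RefSeq's promoter table (GRCm38.p6), for Hist1h4d at chr13:23581448-23581567 on the plus strand and for Hist1h1e at chr13:23622559-23622678 on the minus strand, with matches to CCAAT and TATAAA on either strand in capitals.

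Hist1h4d promoter: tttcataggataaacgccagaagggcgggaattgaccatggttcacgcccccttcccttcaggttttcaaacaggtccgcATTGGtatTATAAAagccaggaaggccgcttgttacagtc
Hist1h1e promoter: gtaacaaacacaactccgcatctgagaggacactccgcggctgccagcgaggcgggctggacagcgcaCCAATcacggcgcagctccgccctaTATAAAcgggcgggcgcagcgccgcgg

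Both windows held both motifs. Among the 50 members with a RefSeq promoter, CCAAT was found in 39 (78%) and TATAAA in 16 (32%), against 21.3% and 6.34% of all 32851 promoters of the same length. The octamer ATTTGCAT, known from H2B promoters, was found in 5 members (10%) and in 0.791% of all promoters, and is in neither printed window. A match shows letters only, not a bound site.

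Counted RNA came from few of the genes. The 54 members gave 29315 UMIs in kept nuclei; 47 had at least 1 UMI and 7 had none, and a count of 0 allows up to 3 UMIs, which is 0.0291 UMIs per 1000000 UMIs (CPM) over all nuclei. The 12 members with 200 UMIs or more held 96.4% of the total. A further 25 members had at least 10 but under 200 UMIs (3.45% together) and 10 had 1 to 9. Just inside the limit of 200 UMIs was Hist1h3e with 225, and just outside it was Hist1h3d with 131. Among the histone types, H2B took 54.6% of the UMIs over 15 genes, H1 22.2% over 6, H4 17% over 11, H2A 4.49% over 13 and H3 1.7% over 9.

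The core histone gene Hist1h2bc (chr13:23684199-23692908, plus strand, 2 exons) led with 8896 UMIs, followed by Hist1h2be with 6839 and the linker histone gene Hist1h1c with 5143. These 3 genes held 71.2% of the counted RNA. Hist1h4d came next with 1968 UMIs, before Hist1h1e with 1208. Below them were the H4 genes Hist1h4i (1073), Hist1h4c (951) and Hist1h4h (760), then the H2A genes Hist1h2ac (411), Hist1h2ae (408) and Hist1h2ap (386). Per 1000 bases of the longest model the order changed: Hist1h2bc had 7696 UMIs, Hist1h1c 3297, Hist1h2be 2729, Hist1h4d 1729, Hist1h4h 1617, Hist1h4i 1476, Hist1h4c 1160, Hist1h2ap 801 and Hist1h1e 626.

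**Figure D1:**
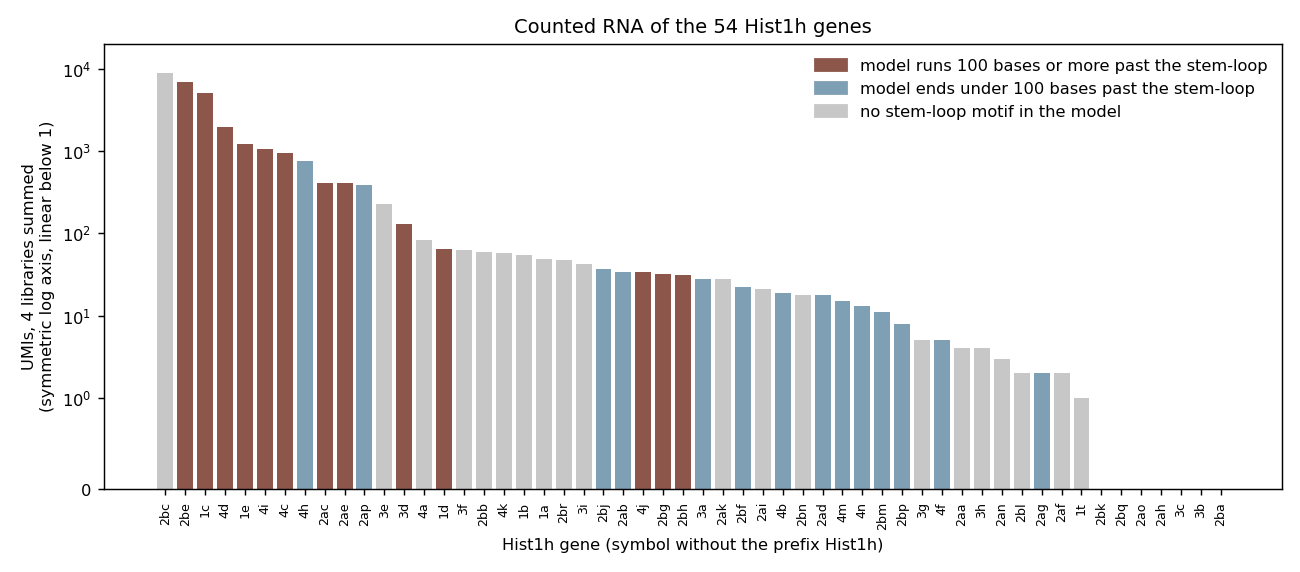
Bars show the UMIs of each of the 54 Hist1h genes, summed over kept nuclei of the 4 libraries (symmetric log axis, linear below 1), coloured by the transcript model. Hist1h2bc is highest with 8896 UMIs, and 7 genes at the right have none.

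The members differed with how far their models run past the stem-loop, a feature the choice of genes did not use. The 13 members whose models continue for 100 bases or more had a median of 411 UMIs (range 31 to 6839), held 62.4% of all Hist1h UMIs, and none was at 0. The 16 members whose models end sooner had a median of 16.5 UMIs (0 to 760) and held 4.63%. The 25 members with no stem-loop in the model had a median of 18 UMIs (0 to 8896) and held 33%, most of it from Hist1h2bc. Hist1h4h and Hist1h2ap were the members above 200 UMIs whose models end within 100 bases. The 13 and the 16 members also differ in model length and in sequence shared with other genes. Of their 60-base windows, 1.87% to 48.8% were shared in the 13 members and 31.6% to 93.3% in the 16. The part of these differences in the counts was not tested. Read positions were not analysed here, so the form of RNA behind a UMI was not measured. The 5 members with a model of more than 1 exon held 53.9% of the UMIs and the 49 single-exon members 46.1%.

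Which classes held Hist1h RNA depended on whether it was set against all RNA or against nuclei. Set against all UMIs, summed Hist1h RNA was highest in rods, with 635 and 450 CPM at 2.5 months and 689 and 810 CPM at 5 months. It was lowest in ganglion cells, with 83.9 and 51.5 CPM and 78 and 84.6 CPM. No ganglion library reached any rod library. Per nucleus the same sums were 0.728, 0.712, 0.943 and 0.968 UMIs in rods and 0.824, 0.706, 0.707 and 0.792 in ganglion cells, which overlap. Rod nuclei held 1147 to 1584 UMIs of all genes and ganglion nuclei 9057 to 13718. Over the 4 libraries pooled, RPE (1.42 UMIs per nucleus) and bipolar cells (1.28) were highest, and ganglion cells (0.757) and fibroblasts (0.762) were lowest of the tested classes.

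**Figure D2:**
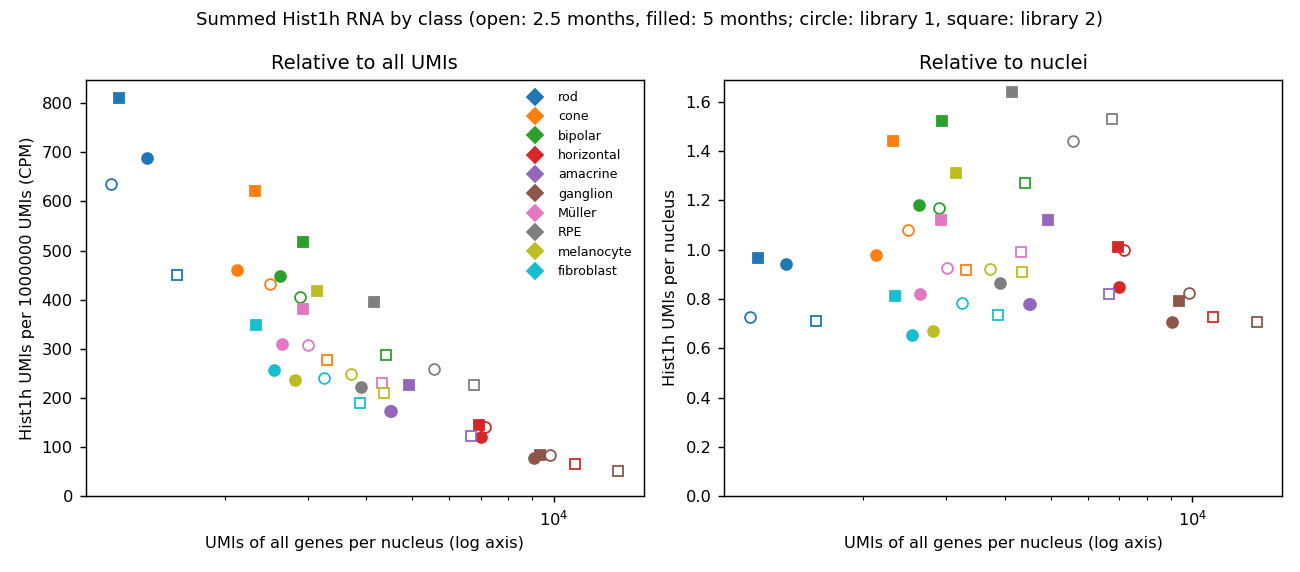
Each point is 1 class in 1 library, with the UMIs of all genes per nucleus on a log axis. On the left summed Hist1h RNA falls from 810 CPM in the highest rod library to 51.5 CPM in the lowest ganglion library; on the right, per nucleus, rods and ganglion cells overlap.

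Each class was compared with the mean of the other classes by edgeR's quasi-likelihood test with library as a block, and Hist1h genes had been kept out of the clustering. Of the 54 members, 11 passed the filter on low counts over classes. They gave 50 calls among 110 gene-by-class tests at a Benjamini-Hochberg adjusted p under 0.05, beside 51.9% of all 148430 tests, so that the count as a whole stood below the background. The direction was uneven. In rods 10 of 11 members were higher (background 33.3%), with a median log2 fold change of 1.19 against -0.02 over all genes. In ganglion cells 11 of 11 were lower (background 29.1%), with a median of -1.21 against 0.02. Bipolar cells had 7 higher (background 25.8%), cones 5 (30.1%) and Müller glia 4 (28.3%), and none lower in these 3 classes; amacrine cells had 4 lower (24.3%) and none higher.

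The H2A gene Hist1h2ac had its highest values in rods, at 23.4 and 11.2 CPM at 2.5 months and 17.9 and 12.5 CPM at 5 months, against 0.317 to 1.2 CPM in ganglion cells. Its log2 fold change in rods was 2.62 (SE 0.215, adjusted p 1.6e-14). Hist1h2be was even across rod libraries, with 168, 166, 170 and 154 CPM, and its log2 fold change there was 1.72 (SE 0.0929, adjusted p 1.16e-20). In ganglion cells Hist1h2be was lower by a log2 fold change of -2.26 (SE 0.15, adjusted p 1.5e-17). Hist1h2bc followed the same order, with 1.48 in rods and -1.97 in ganglion cells on the log2 scale.

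**Figure D3:**
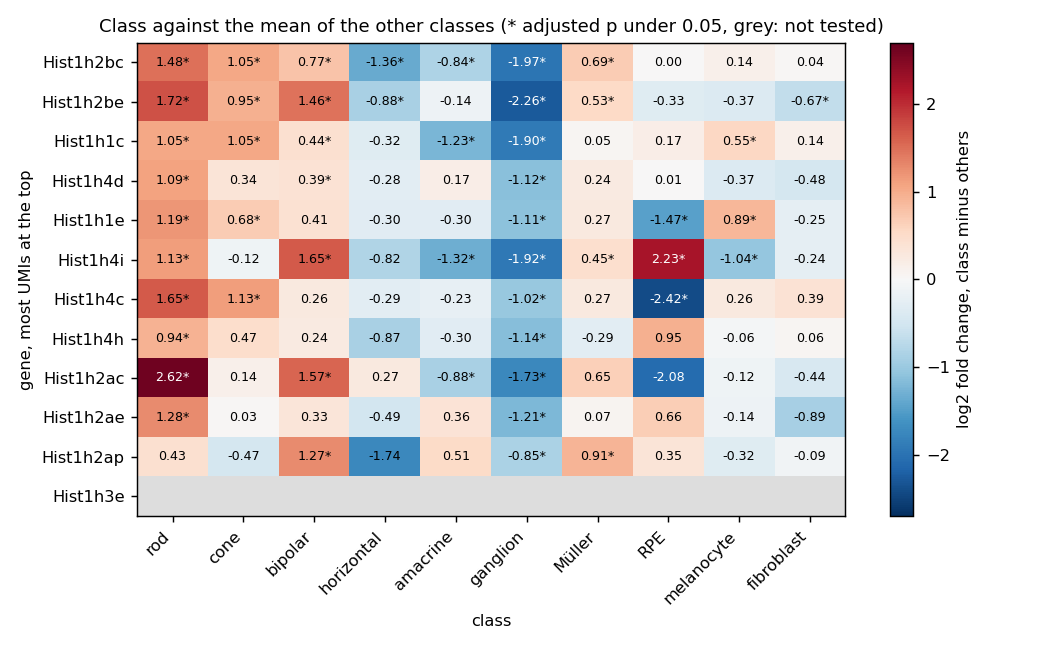
Cells give the log2 fold change of a class against the mean of the other classes, relative to all UMIs, for members with 200 UMIs or more; a star marks an adjusted p under 0.05. Rods are positive for every tested gene, up to 2.62 for Hist1h2ac, and ganglion cells are negative for every tested gene.

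When the same model was scaled to the number of nuclei, an alternative chosen after the data were seen, 41 of 110 tests were called, beside 63.7% of all tests, and 29 of the 50 first calls were among them. The sign turned for 13 of the 50. The median over all genes then moved to -1.57 in rods and 1.44 in ganglion cells, so per nucleus most genes are lower in rods. Of the 11 members, 1 was higher and 5 were lower in rods per nucleus (background 4.64% higher and 84.7% lower), and 4 were lower and none higher in ganglion cells (background 4.06% lower and 83.6% higher). Hist1h4d in rods changed from a log2 fold change of 1.09 (SE 0.142, adjusted p 7.42e-09) relative to all UMIs to -0.38 (SE 0.157, adjusted p 0.02) per nucleus. Hist1h2ac stayed higher in rods by both measures, with 1.04 (SE 0.244, adjusted p 0.000113) per nucleus, but rods did not stand apart as its highest class per nucleus. It averaged 2.51 ± 2.08 UMIs per 100 nuclei in horizontal cells, 2.19 ± 0.986 in bipolar cells and 2.1 ± 0.558 in rods (SD, n = 4), which lie within each other's SD. Pooled over libraries the values were 1.55 in horizontal cells, which rest on few UMIs, 2.33 in bipolar cells and 2.12 in rods. Bipolar cells were also higher per nucleus, with 1.23 (SE 0.297, adjusted p 0.0004). Hist1h2be stayed lower in ganglion cells, with -0.83 (SE 0.17, adjusted p 1.24e-05).

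The H4 gene Hist1h4i stood highest in RPE by both measures. It had 25.7 and 36.2 CPM at 2.5 months and 29.6 and 69.2 CPM at 5 months there, or 14.3, 24.4, 11.5 and 28.7 UMIs per 100 nuclei. RPE averaged 19.7 ± 8.16 UMIs per 100 nuclei (SD, n = 4), bipolar cells followed with 8.67 ± 3.49, and the other tested classes lay at 1.79 to 4.05. The log2 fold change in RPE was 2.23 (SE 0.27, adjusted p 3.25e-09) relative to all UMIs and 2.63 (SE 0.271, adjusted p 4.63e-12) per nucleus. In bipolar cells it was 1.65 (SE 0.161, adjusted p 4.63e-12) and 1.31 (SE 0.158). RPE rests on 282 nuclei. Other H4 genes differed in RPE. Hist1h4c was lower there by both measures, with log2 fold changes of -2.42 (SE 0.631) relative to all UMIs and -2.06 (SE 0.713) per nucleus. This rests on very few UMIs, with 1.19 and 0 per 100 nuclei at 2.5 months and 1.92 and 0 at 5 months. Hist1h4h did not pass relative to all UMIs (0.95, adjusted p 0.0826) and was higher per nucleus (1.30, adjusted p 0.0243), where RPE stood first with 5.2 ± 4.63 UMIs per 100 nuclei. That mean leans on the second 5-month library, with 4.76 and 2.22 at 2.5 months and 1.92 and 11.9 at 5 months.

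Some members were higher in another class by both measures. Hist1h2be was higher in bipolar cells by both measures, with a log2 fold change of 1.46 (SE 0.101, adjusted p 1.1e-16) relative to all UMIs and 1.09 (SE 0.123) per nucleus, and averaged 39 ± 12.9 UMIs per 100 nuclei there (SD, n = 4), ahead of cones with 25.3 ± 8.3. Hist1h1e was higher in melanocytes by both measures, with 0.89 (SE 0.24, adjusted p 0.00202) and 0.88 (SE 0.249), but 56 of its 72 UMIs there came from the second 5-month library. The H1 gene Hist1h1c averaged 104 ± 42.1 CPM in rods and 99 ± 55.4 in cones, against 13.5 ± 4.49 in ganglion cells. Per 100 nuclei Hist1h1c averaged 11 ± 3.32 UMIs in amacrine cells, 13.3 ± 4.18 in rods and 13.5 ± 3.12 in ganglion cells, the 3 lowest classes, and 25.5 ± 7.83 in RPE and 24.6 ± 12 in cones, which lie within each other's SD.

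Ordered by mean CPM, Hist1h4d ran from rods (37.2 ± 28.6, SD, n = 4) through cones (23.4 ± 21.3) and bipolar cells (21.4 ± 15.9) to ganglion cells (7.55 ± 5.89). Neighbours in that order lie within each other's SD, which contains the age difference. Per 100 nuclei the order began with amacrine cells (9.32 ± 7.78 UMIs) and rods came ninth of 10 classes (4.87 ± 3.71).

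At 5 months Hist1h4d was higher, as counted, in each of the 10 tested classes. In rods it had 10.2 and 15.3 CPM at 2.5 months and 66.7 and 56.4 CPM at 5 months; in cones 4.93 and 5.13 against 43.7 and 40 CPM; in amacrine cells 4.17 and 5.24 against 32.2 and 35.2 CPM. Bipolar cells had 8.49 and 6.8 against 35 and 35.2 CPM, and Müller glia 3.1 and 8.91 against 37.6 and 27 CPM. As counted, both 5-month libraries lay above both 2.5-month libraries in every tested class, also where the gene was low: ganglion cells had 0.799 and 4.62 against 11.2 and 13.6 CPM. The classes outside the neural retina did the same, with 10.7 and 9.86 against 24.6 and 19.1 CPM in RPE and 2.01 and 8.94 against 28.7 and 21.5 CPM in fibroblasts. In RPE this rests on 5.95 and 6.67 against 9.62 and 7.92 UMIs per 100 nuclei, with 45 to 101 nuclei a library. Hist1h4d did not pass the filter on low counts in RPE, and its separation there does not exceed counting error. Set against nuclei, rods had 1.17 and 2.42 Hist1h4d UMIs per 100 nuclei at 2.5 months and 9.13 and 6.75 at 5 months.

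Hist1h1e, a linker histone gene, showed the same direction with more spread between the 5-month libraries. Rods had 3.5 and 9.26 CPM at 2.5 months and 23.6 and 55.1 CPM at 5 months, and melanocytes 4.54 and 4.85 against 17.7 and 42.7 CPM. Bipolar cells had 3 and 4.76 against 19.8 and 19.3 CPM. In horizontal cells no UMI was counted in either 2.5-month library, against 8.41 and 12.9 CPM at 5 months. A count of 0 allows up to 3 UMIs. The first 2.5-month library held only 207277 UMIs of horizontal cells, so its separation from 5 months does not exceed counting error. The second held 442693 UMIs, where that limit lies below both 5-month values. In RPE Hist1h1e had 1.19 and 0 UMIs per 100 nuclei at 2.5 months against 3.85 and 1.98 at 5 months. With 45 to 101 RPE nuclei a library, that separation does not exceed counting error either. As counted, the groups did not overlap in any of the 10 classes, and in 7 of them the second 5-month library was the higher one. Hist1h1e and Hist1h2be, which share exon sequence, gave together 171 and 176 CPM in rods at 2.5 months and 194 and 209 at 5 months, and over all nuclei 89.6 and 93.1 against 62.3 and 68.7 CPM.

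**Figure D4:**
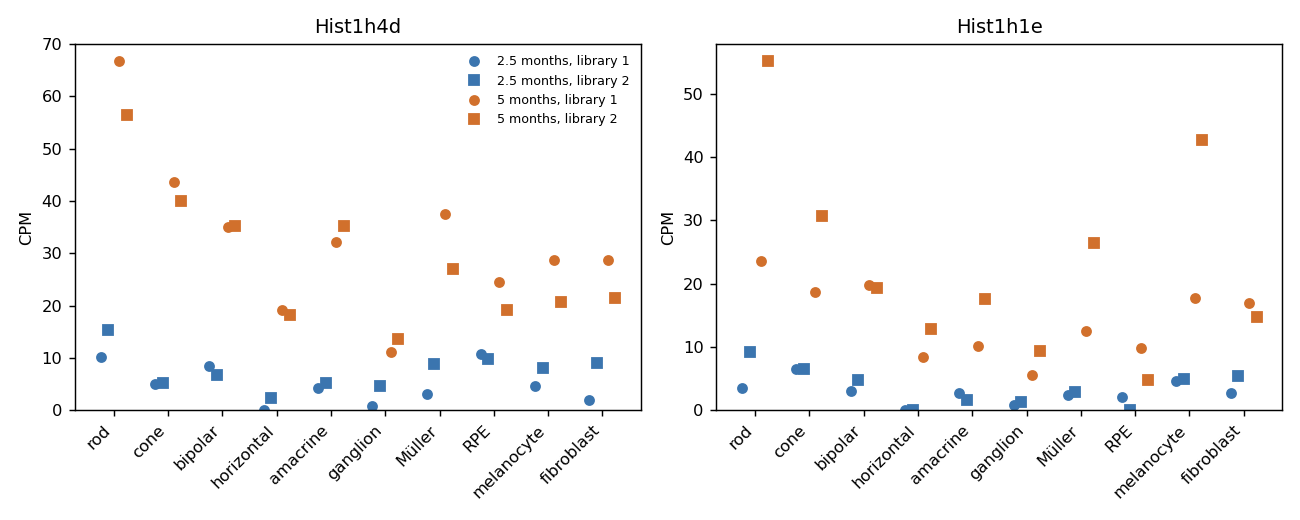
CPM of Hist1h4d and Hist1h1e in each of 10 classes, 1 point per library. For both genes the orange points of 5 months lie above the blue points of 2.5 months in every class, from 66.7 and 56.4 against 10.2 and 15.3 CPM for Hist1h4d in rods. In RPE, and for Hist1h1e in horizontal cells, the points rest on few UMIs. The separation does not exceed counting error in RPE, nor for Hist1h1e in the first 2.5-month library of horizontal cells.

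The fitted log2 fold change of Hist1h4d, 5 months minus 2.5 months, was 2.03 to 3.62 (median 2.28) over the 9 classes where it passed the filter on low counts. That of Hist1h1e was 1.92 to 2.93 (median 2.69) over 8 classes. The filter asks for enough counts in 2 libraries, so a gene can pass through the libraries of either age alone. With 2 libraries an age, edgeR called Hist1h4d in 4 classes (rods, cones, bipolar and amacrine cells) and Hist1h1e in none, where all 8 tests had an unadjusted p under 0.05; over all genes and classes 0.0294% of 112071 tests were called higher. Under DESeq2 Hist1h1e passed in rods and amacrine cells. These calls come from the contrast that chose the topic, and nothing is read from them. The Hist1h4d call was lost in rods in thinned sums (adjusted p 0.0553), in cones without the first 5-month library (0.0983), and in bipolar cells without the first 2.5-month library (0.0512) and per nucleus (0.143). Without the second 2.5-month library the median of Hist1h4d was 3.08 and its value in horizontal cells 6.66 instead of 3.62.

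The difference was not shared by all members. Summed over all nuclei, both 5-month libraries lay above both 2.5-month libraries for 7 of the 12 members with 200 UMIs or more, below them for 2, and overlapped for 3; of 15174 genes with as many UMIs, 20.3% were higher and 24.4% lower in this way. Of the 25 members with at least 10 but under 200 UMIs, 13 were higher and 2 lower, against 25.3% and 10.7% of 6708 genes. The lower share of rods among the 5-month nuclei moves with these sums, and its part in them was not tested. By class, Hist1h4c did not overlap and was higher in 9 of 10 classes, Hist1h4h and Hist1h3e in 7, and Hist1h2ap and Hist1h2ae in 5; the background over genes and classes was 16.3%. As counted, non-overlap in every class and upward held for 19 genes of 15174 (0.125%), Hist1h4d and Hist1h1e among them. For both genes this includes RPE, where the separation does not exceed counting error. For Hist1h1e it includes horizontal cells, where the same holds for the first 2.5-month library.

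Hist1h4c had 16.2 and 15.9 CPM in rods at 2.5 months and 32.5 and 25.1 at 5 months, and 8.22 and 8.86 against 28 and 19.8 CPM in cones. Hist1h4h had 8.35 and 6.68 against 22 and 23.7 CPM in rods, but 7.76 and 3.75 against 5.46 and 8.41 CPM in Müller glia, where the ages overlapped. The H3 gene Hist1h3e was low throughout, with 1.62 and 1.94 against 4.07 and 7.61 CPM in rods. It passed the filter in 2 classes, through its 5-month libraries, so a positive value there was set by the filter and nothing is read from it. The fitted log2 fold changes of Hist1h3e were 1.78 (SE 0.522) in rods and 2.96 (SE 0.694) in amacrine cells, and neither was called. The latter lay above that of Hist1h4d there (2.76), but rested on 0.312 and 0.194 against 1.07 and 2.24 UMIs per 100 nuclei. Fitted log2 fold changes were 0.63 to 1.54 for Hist1h4c and 0.41 to 2.21 for Hist1h4h, each over the 7 classes where it passed the filter. All were positive, but a low gene can pass in a class through 5 months alone, so the shared sign is partly set by the filter.

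The most counted members showed smaller differences that were not called in any class. Hist1h2bc had 119 and 57 CPM over all nuclei at 2.5 months and 73.1 and 103 at 5 months, and overlapped between ages in all 10 classes. Its fitted log2 fold change was positive in 9 of 10 classes, from -0.25 to 0.89 with a median of 0.46. Hist1h1c, the other abundant H1 gene, had 58.7 and 33.2 against 34.6 and 71.1 CPM and was separated in 1 class. Its fitted values were positive in 10 of 10 classes, from 0.33 to 0.85, none with an unadjusted p under 0.05, and their median fell to 0.03 without the second 5-month library. Hist1h4i, an H4 gene like Hist1h4d, had 15.9 and 7.91 against 7.05 and 11.8 CPM and overlapped in all 10 classes. Its fitted median of 0.15 turned negative under 6 of the other settings.

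Hist1h2be and Hist1h2ac went the other way. Hist1h2be was lower at 5 months without overlap in 9 of 10 classes (background 19.7%), with fitted log2 fold changes of -1.30 to -0.04. Ganglion cells had 20 and 14.8 CPM at 2.5 months against 8.9 and 4.91 at 5 months, and amacrine cells 56.7 and 58.5 against 32.9 and 32.5 CPM. Rods were the exception, where its values of both ages overlapped. Hist1h2ac was lower without overlap in 6 classes, with fitted values of -0.80 to -0.20 in the 4 classes where it passed the filter.

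**Figure D5:**
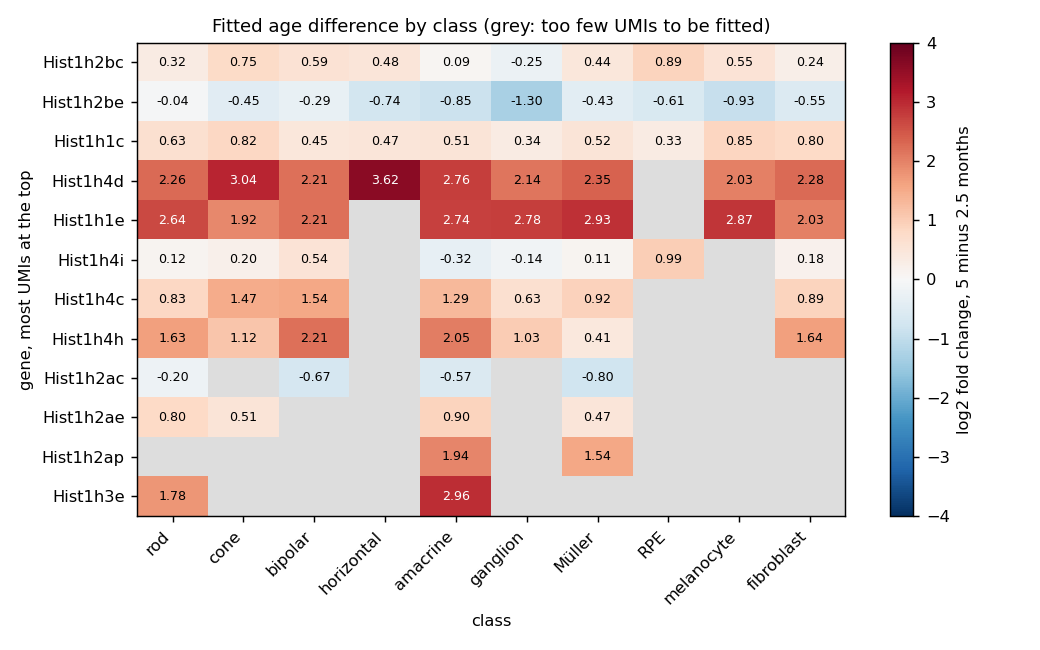
Cells give the fitted log2 fold change, 5 months minus 2.5 months, of the 12 members with 200 UMIs or more in 10 classes. Grey cells did not pass the filter on low counts, which a low gene can pass through the libraries of either age alone, as Hist1h3e did through 5 months. Hist1h4d and Hist1h1e are positive in all their tested classes (1.92 to 3.62), Hist1h3e has 1.78 and 2.96 in its 2 tested classes, and Hist1h2be is negative in every class, down to -1.30 in ganglion cells.

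By histone type, H4 RNA over all nuclei was 35.9 and 27.6 CPM at 2.5 months and 63.3 and 63.5 at 5 months. Without Hist1h4d the remaining 10 H4 genes had 30.1 and 20 against 32.5 and 34.5 CPM. H1 RNA was 62.2 and 38.6 against 48.2 and 97.8 CPM, H2B 208 and 147 against 126 and 151 CPM, H2A 15.4 and 8.95 against 9.63 and 17 CPM, and H3 3.79 and 3.17 against 4.86 and 6.94 CPM. Over all nuclei H4 and H3 were thus separated by age, and H1, H2A and H2B overlapped. The lower share of rods at 5 months moves with these sums, and its part was not tested. Within rods H1 was higher at 5 months without overlap (106 and 74.7 against 113 and 223 CPM). The same held in cones, bipolar, amacrine and ganglion cells and fibroblasts, while H1 overlapped in Müller glia, horizontal cells, melanocytes and RPE. All Hist1h RNA together was 325 and 226 CPM at 2.5 months and 252 and 336 CPM at 5 months over all nuclei. Within rods, cones, bipolar cells, Müller glia and fibroblasts it was higher at 5 months without overlap. The H1 sum holds Hist1h1e and the total also Hist1h4d, which chose the topic, so nothing is read from these separations. Without these 2 genes rods had 621 and 425 against 599 and 698 CPM, which overlap.

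Whether the age difference differed between classes was tested against rods in the joint fit. Of 99 member tests edgeR called 0, 8 had an unadjusted p under 0.05, and over all genes 0.388% of 133587 tests were called. For Hist1h4d the difference from rods ranged from -1.25 (SE 0.739) in RPE to 1.64 (SE 1.26) in horizontal cells on the log2 scale, which leaves room for differences of that order. Hist1h2be in ganglion cells came nearest, with -1.27 (SE 0.28, adjusted p 0.0562). It was called under RLE scaling (-1.32), with no filter (-1.18) and without the first 5-month library (-1.68), and per nucleus in ganglion cells (-1.55), melanocytes (-1.16) and fibroblasts.

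Other genes of histone supply were read from lists beside the members, and the 4 members of each list with the most UMIs are given in CPM over all nuclei, 2.5 months against 5 months. Of 13 histone genes outside the Hist1 clusters, 11 had a UMI and none was called by age in any class. Hist3h2ba, an H2B gene, led with 56.9 and 47.3 against 43.6 and 78, before Hist2h2be with 5.99 and 5.57 against 4.98 and 5.92, Hist2h4 with 5.42 and 5.16 against 2.49 and 5.15, and Hist2h3c1 with 4.76 and 2.19 against 2.24 and 2.02. None of the 11 replication-independent variants was called. H3f3b (428 and 325 against 277 and 454) and H3f3a (384 and 256 against 207 and 316) encode H3.3, H2afz (112 and 72 against 74.6 and 135) encodes H2A.Z, and H2afy (93.3 and 91.4 against 86.7 and 84.1) encodes a macroH2A.

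None of 17 genes of histone transcription and 3-prime processing was called. Npat had 51.7 and 59.7 against 53.2 and 49.1 CPM, the cap-binding gene Ncbp1 33.4 and 38.4 against 36.2 and 36.9, the uridylyltransferase gene Zcchc6 32 and 36.6 against 32.8 and 34.7, and Srrt 32.9 and 32.2 against 30.6 and 37.7. None of 21 histone chaperones was called. Ubn2, of the H3.3 chaperone complex with HIRA, had 383 and 401 against 334 and 299 CPM, Atrx 267 and 292 against 256 and 226, Nap1l1 105 and 107 against 109 and 99.3, and Anp32e, a chaperone of H2A.Z, 109 and 99.5 against 82.1 and 63.9. Of 26 genes of DNA replication and division, 25 had a UMI and none was called. Orc1, of the origin recognition complex, had 16.4 and 14.9 against 14.9 and 25.9 CPM and a positive fitted value in 7 of 9 classes, while Pcna, the sliding clamp of replication, had 20.6 and 12.3 against 11.7 and 12 and a positive value in 1 of 8. Rrm1, a subunit of ribonucleotide reductase, had 13.8 and 13.5 against 10.9 and 10.8 (positive in 3 of 8), and the cyclin gene Ccne2 9.46 and 11.4 against 11.2 and 15 (positive in 5 of 6). DESeq2 called none of these lists' genes either. Under edgeR an unadjusted p under 0.05 was reached in 1 of 23 gene-by-class tests of the other histones, 4 of 90 of the variants, 7 of 135 of the processing genes, 9 of 176 of the chaperones and 1 of 75 of the replication genes. Over all genes 0.0509% of age tests were called.

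Other measures were read beside the histone genes. Lens crystallins, RNA of another eye tissue, were separated by age: they summed to 361 and 69.6 CPM in rods at 2.5 months and 5.7 and 8.51 CPM at 5 months, opposite in direction to Hist1h4d. Over all nuclei Crybb2 (55.6 and 10 against 0.0422 and 0.224 CPM), Cryaa (39.3 and 9.96 against 0 and 0.192), Cryba1 (15.6 and 4.46 against 2.28 and 4.7) and Crygs (17.9 and 3.14 against 0.0422 and 0.032) had the most UMIs of that list. Rod transcripts, most of which amacrine cells should lack, summed in them to 5478 and 3393 CPM at 2.5 months and 3535 and 2753 CPM at 5 months, which overlap. In ganglion cells they summed to 3098 and 1947 against 1818 and 1418 CPM, which do not. Of the 17 rod transcripts, 0 had a positive fitted value in either class, against 11 in rods. Under edgeR 27 of their 170 gene-by-class tests had an unadjusted p under 0.05 and 0 were called. Single-exon coding genes other than histones, which have no intron to be counted, summed in amacrine cells to 2980 and 2378 against 2658 and 3419 CPM and overlapped. Single-exon Hist1h members summed there to 57 and 39.4 against 103 and 141 CPM and did not. That sum holds Hist1h4d and Hist1h1e, whose values chose the topic, so nothing is read from its separation. The part of these measures in the Hist1h differences was not tested.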

How the data were processed

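The deposited values are raw counts of UMIs for each gene and barcode, in whole numbers, made by the authors with Cell Ranger 7.1.0 (2.5 months) and 4.0.0 (5 months) per the file headers, on mm10 per the submitters' processing notes. Barcodes with under 300 genes or over 5% mitochondrial UMIs were dropped, 27 in all. Doublets were called with scrublet and removed: 672 and 784 at 5 months, but only 3 and 1 at 2.5 months, so doublets there are taken as not removed; the reason for the low number was not tested. Shared barcodes made up 0.0401% to 0.144% of any pair of libraries.

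Nuclei were clustered without histone genes (scanpy 1.11.5, leidenalg 0.10.2, 2000 variable genes, 30 components, resolution 1) into 47 clusters, of which 38 were named from markers; 2671 nuclei stayed unnamed. The limits used in naming were set after the clusters were seen. UMIs were summed per library and class and tested over all genes with edgeR 4.0.16 in R 4.3.3 (quasi-likelihood, TMM scaling, filterByExpr, 2-sided, adjusted p under 0.05); age was the only term by class. DESeq2 1.42.0, other scalings, filters, thinning and left-out libraries were tried as alternatives. The tests were tried on simulated data.

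Donors are numbered and each library counted as 1 replicate. In the age tests p-values measure the spread between libraries, and classes of 1 library share it. In the class and class-by-age tests, with library as a block, they measure how differences between classes vary from library to library. Members and lists were chosen with earlier results of these data known. Named were Hist1h4d, Hist1h1e and every member with 200 UMIs or more, and of each list the 4 members with the most UMIs, except for rod transcripts, whose single genes are not reported here. The feature tables hold older symbols, all 54 of which matched GENCODE M21.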

Additional observations from a re-analysis of the deposited data

Results flagged for a closer look

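Hist1h RNA was also counted in nuclei that entered no test. Endothelium-like nuclei, too few in 1 library to be tested, held 147 Hist1h UMIs over 155 nuclei. Striated muscle-like nuclei held 140 over 182 nuclei, most of them from the first 2.5-month library. Nuclei of unnamed clusters held 3005 UMIs, or 1.13 per nucleus against 0.951 over all kept nuclei. All 3 sums lie above the 3 UMIs that a count of 0 allows. In unnamed clusters Hist1h4d had 2.57 and 2.91 UMIs per 100 nuclei at 2.5 months and 11.5 and 9.88 at 5 months, and Hist1h1e 0.368 and 2.55 against 3.78 and 14.9.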

How the results depend on the processing

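Age calls among members numbered 4. They became 26 with no filter on low counts, 7 under DESeq2, 15 when scaled on single-exon genes, 11 when scaled to nuclei and 0 of 23 members in 1 sum over all nuclei, where 11 had an unadjusted p under 0.05. Leaving out each library gave 4 to 13 age calls, with the lone library of an age assumed to vary like the others. Class calls (50) fell to 31 without the library block. Calls of a class-by-age difference went from 0 to 1 under RLE scaling and with no filter, 3 when scaled to nuclei, and 0 to 1 over left-out libraries. The median change of Hist1h4i was -0.07 when scaled on single-exon genes, -0.26 in thinned sums, -0.23 when scaled to nuclei, -0.35 over all nuclei, and -0.35 to 0.69 over left-out libraries; leaving out the second library of either age turned it (-0.35 and -0.04). That of Hist1h2bc (0.46) was -0.02 over all nuclei and -0.05 to 0.90 over left-out libraries, negative without the second 5-month library. The cause of these turns was not tested. Hist1h4d and Hist1h1e kept their direction in every setting run, with medians of 1.85 to 3.08 and 2.20 to 3.05, though Hist1h4d lost its call in 1 class each when thinned, scaled to nuclei, or without the first library of either age. The median of all genes over classes was 0.01 to 0.03 at first, -0.38 to 0.02 when scaled on single-exon genes and -0.72 to -0.09 when scaled to nuclei.

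Both ages use donor numbers 1 and 2, which only name the donors: deviations of same-numbered libraries correlated at -0.10 to 0.03 across genes over 10 classes. With the replicate block, age calls among members rose to 17. In RPE and horizontal cells few UMIs limit what could be seen.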
